A study of Mus musculus with 12 samples.

Results

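The genes described here are 10 mouse genes of antigen presentation by MHC class II and of conventional dendritic cells. They were chosen by name: the classical class II chains H2-Aa, H2-Ab1 and H2-Eb1, the peptide exchange chains H2-DMa and H2-DMb1, the invariant chain Cd74, the class II transactivator Ciita, and the dendritic cell receptors Flt3, Xcr1 and Clec9a. The table of counts holds 24187 genes, of which 22581 had enough counts to be tested, and all 10 of the chosen genes were among them. Levels were measured by bulk RNA sequencing of whole liver from 12 mice, C57BL/6J per the labels, while the study's methods for the APAP model name the substrain C57BL6/JOlaHsd.

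The control group held 3 mice without APAP injury. The other groups were injured with acetaminophen (paracetamol, APAP), an analgesic that kills hepatocytes around the central vein at high dose, at 350 mg/kg per the labels. After APAP, 5 mice received phosphate-buffered saline (APAP vehicle) and 4 received hAAMs (APAP hAAM). These are human macrophages matured from donated blood monocytes and polarized with IL-4 and IL-13, so the APAP hAAM mice received cells of another species. The study's methods give vehicle and cells in this saline with or without a cryopreservation medium, and hAAMs as fresh or thawed. The sample titles name only the saline and the hAAMs. Per the study's methods, mice were 10 to 12 weeks old and fasted for 12 h, cells or vehicle went into the tail vein 16 h after APAP, and livers were taken at 36 h. A legend of the study gives 32 h for its more severe model at a higher APAP dose, beside which it shows RNA sequencing, so the dose and time of these livers are in doubt. The sex of the mice was not given for these livers. The comparisons address how class II and dendritic cell transcripts stood after APAP injury and whether they differed when hAAMs were given.

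MHC class II molecules are pairs of an alpha and a beta chain that carry peptides from digested proteins to the cell surface, where CD4+ T cells read them. New pairs are held by the invariant chain, lysosomal proteases cut that chain down to a short placeholder, and H2-DM exchanges the placeholder for a peptide. CIITA switches the whole set on, and the set is made mainly by dendritic cells, B cells and macrophages. In liver, type 1 conventional dendritic cells, which depend on FLT3 and carry XCR1 and CLEC9A, take up dead cells and present their contents.

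The class II genes share a promoter module, shown here because it is a feature that the choice of genes did not use. CIITA binds no DNA itself and acts through RFX on the X box and NF-Y on the Y box. RefSeq promoter windows of GRCm38.p6, from 250 bases before to 50 bases after each start, were given for 7 of the 10 genes, and H2-Ab1, Cd74 and Ciita had none. The Y box was searched as TGATTGG and the X box by its first letters GNAAC starting 28 to 34 bases before it, on both strands, a rule set with these sequences in view. The pair was found in H2-Aa, H2-Eb1 and H2-DMb1 and in 3 of 4 further class II genes with a window, H2-Oa, H2-Ob and H2-Eb2. It was not found in the window of the fourth, H2-DMb2, which held TGATTGG alone, nor in those of H2-DMa, Flt3, Xcr1 and Clec9a. Of 32851 windows of all genes, 0.231% held the pair and 7.82% held TGATTGG, so the pair is uncommon, and a match describes letters and not a bound site. The upstream stretches of H2-Aa (GRCm38 chr17:34287831-34287930, minus strand) and H2-Eb1 (chr17:34305750-34305849, plus strand) follow, 5′ to 3′, with the X box start and the Y box in capitals.
H2-Aa: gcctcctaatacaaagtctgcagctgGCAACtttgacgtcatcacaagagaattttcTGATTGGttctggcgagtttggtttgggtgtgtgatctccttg
H2-Eb1: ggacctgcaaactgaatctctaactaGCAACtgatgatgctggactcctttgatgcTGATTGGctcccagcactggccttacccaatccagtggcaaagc
Both stretches end before the annotated start site, and the X box start lies 31 bases before the Y box in H2-Aa and 30 bases before it in H2-Eb1.

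Libraries held 47391650 to 74056505 counts, with the control livers deepest (60870399 to 74056505) and the APAP hAAM livers shallowest (47391650 to 55379420). The members ranged from Xcr1, with 6 to 33 counts per liver, to Cd74, with 1383 to 2479. Several livers stood apart. Control replicate 1 had 189 CPM (counts per 1000000, with each library's size scaled by TMM, a trimmed mean of ratios between libraries) of Irf1 against 30.2 and 33.8 in the other controls, 34.9 CPM of Relb against 4.69 and 3.89, and the lowest Clec9a of all 12 livers. APAP vehicle replicate 3 and APAP hAAM replicate 4 were near-identical, their spread being 1.42 times the counting noise against 5.61 to 24.8 times in the other 35 pairs of APAP livers, although their labels put them in different groups. APAP hAAM replicate 3 differed from its group by more than 1 on the log2 scale in 537 of 15386 genes, the most of any liver. Where leaving out one of these 4 livers ended the call of a named gene, that is given with the gene.

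Per kilobase of merged exon, Cd74 was the most abundant of the genes in every group, at 21.1 ± 2.47 CPM per kb in control (SD, n = 3), 16.8 ± 2.80 in APAP vehicle (n = 5) and 20.3 ± 5.98 in APAP hAAM livers (n = 4). In control livers H2-Eb1 (5.41 ± 0.808 CPM per kb), H2-Ab1 (4.52 ± 0.648) and H2-Aa (3.41 ± 0.539) came next, and each overlapped its neighbour within 1 SD. H2-DMb1 (1.37 ± 0.310), Clec9a (1.25 ± 0.448) and H2-DMa (0.937 ± 0.121) formed a lower tier whose neighbours also overlapped. Ciita (0.396 ± 0.0805) stood apart below them. Xcr1 (0.119 ± 0.0132) and Flt3 (0.102 ± 0.0438) were lowest and overlapped. After APAP, Clec9a stood level with or above H2-DMb1 (1.76 ± 0.258 against 1.57 ± 0.126 in APAP vehicle livers), and Xcr1 was the lowest gene, at 0.0524 ± 0.0236 in APAP vehicle and 0.0606 ± 0.0207 in APAP hAAM livers. These lengths count every annotated exon, whether or not it is used in liver.

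**Figure D1:**
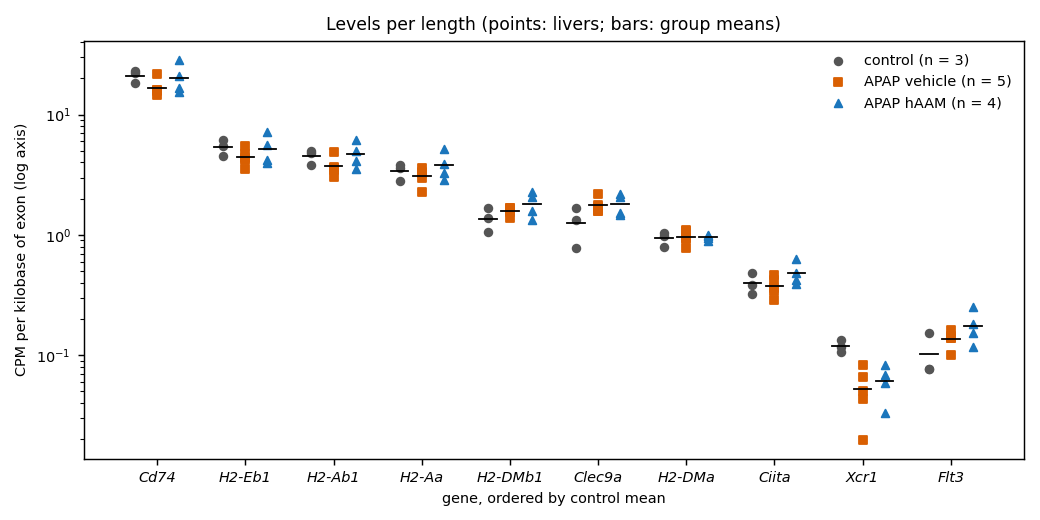
Level per length of the 10 genes, as CPM per kilobase of exon on a log axis, in 3 control (circles), 5 APAP vehicle (squares) and 4 APAP hAAM livers (triangles), with bars at group means. Cd74 lies highest in every group (16.8 to 21.1) and Xcr1 and Flt3 lie lowest.

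Differences are given as log2 fold changes, on which 1 is a 2-fold difference, each with the 95% interval of the model and the false discovery rate (FDR) over all genes tested. Of the 10 genes, only Xcr1 differed between APAP vehicle and control livers by edgeR's quasi-likelihood test at FDR under 0.05, and it fell. That is 1 of 10, where 29.8% of all genes tested were called and 14.8% were called lower, and 1 of 10 had an unadjusted p under 0.05, where 41.8% of all genes had. None of the 10 was called between APAP hAAM and control livers (20.7% of all genes, 9.96% lower), although 3 of them, Flt3, Xcr1 and Clec9a, had an unadjusted p under 0.05, as 35.2% of all genes did. None was called between APAP hAAM and APAP vehicle livers (0% of all genes). DESeq2 gave the same calls for the 10 genes, while it called 34.0%, 25.8% and 0.00443% of all genes in the 3 comparisons. The classical chains, Cd74 and Ciita overlapped between every pair of groups. The calls depend on the scaling: with library size alone H2-DMb1, Flt3 and Clec9a were called higher in APAP vehicle livers in place of Xcr1, and these 3 with Ciita in APAP hAAM livers. That scaling called 8637 genes higher and 1110 lower in APAP vehicle livers, against 3380 and 3339 with TMM scaling, and 6559 and 781 against 2418 and 2248 in APAP hAAM livers. In whole liver, fewer cells of a type and less RNA per cell cannot be told apart.

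**Figure D2:**
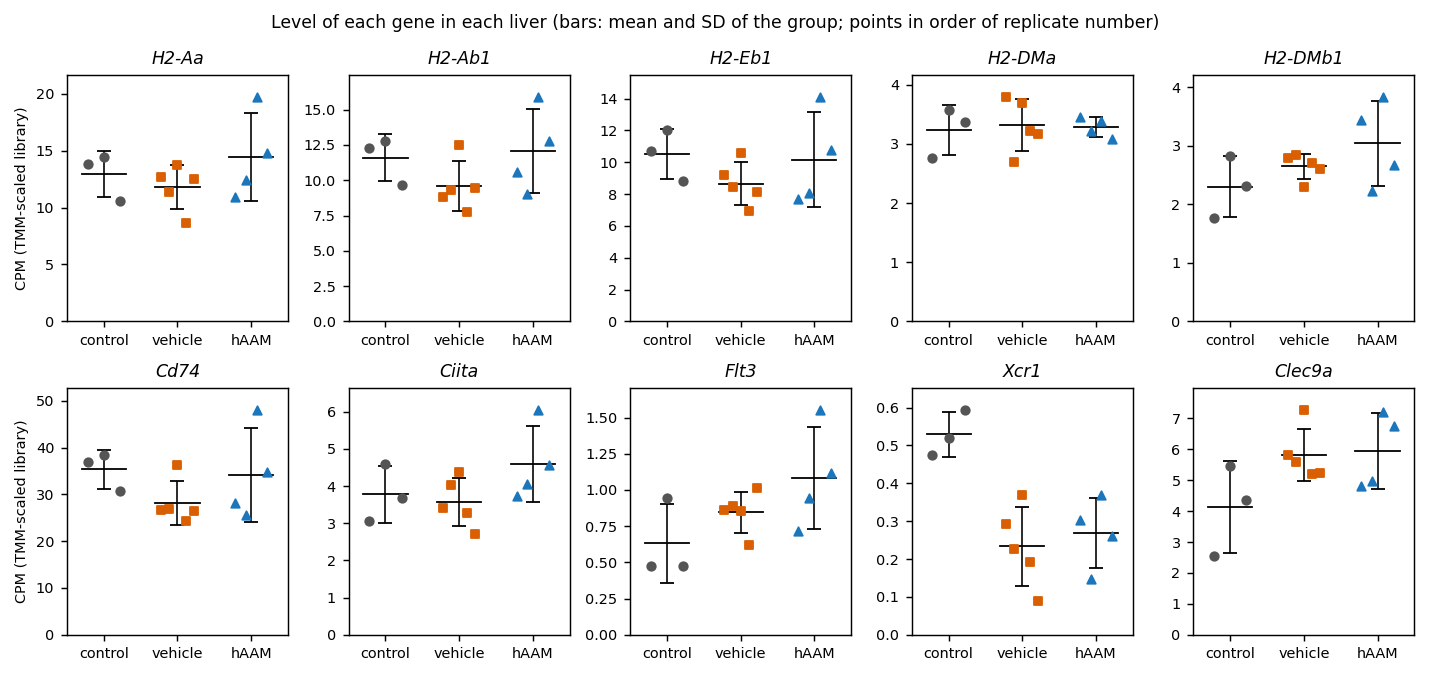
CPM of each gene in each liver (points, in order of replicate number) with the mean and SD of 3 control, 5 APAP vehicle and 4 APAP hAAM livers; every axis starts at 0. Xcr1 is the only gene whose APAP livers (0.0888 to 0.368 CPM) all lie below the control livers (0.476 to 0.593 CPM).

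H2-Aa encodes the alpha chain of the I-A molecule (chr17:34282744-34287823, minus strand, 5 merged exons). It was at 13.8, 14.4 and 10.6 CPM in the control livers, at 12.7, 11.4, 13.7, 8.66 and 12.5 in the APAP vehicle livers and at 10.9, 12.4, 19.7 and 14.8 in the APAP hAAM livers. Groups overlapped, with the lowest value in APAP vehicle replicate 4 and the highest in APAP hAAM replicate 3. Against control the log2 fold change was -0.14 in APAP vehicle (95% interval -0.56 to 0.28, edgeR FDR 0.629) and 0.16 in APAP hAAM livers (-0.28 to 0.60, FDR 0.616), the second turning to -0.03 without APAP hAAM replicate 3.

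H2-Ab1 encodes the beta chain that pairs with it (chr17:34257689-34269419, plus strand). Its CPM was 12.3, 12.8 and 9.70 in control, 8.83, 9.30, 12.5, 7.76 and 9.45 in APAP vehicle and 10.6, 9.0, 15.9 and 12.8 in APAP hAAM livers. In 4 of the 5 APAP vehicle livers H2-Ab1 was below the lowest control, and APAP vehicle replicate 3 lay among the controls. For H2-Ab1 the log2 fold change was -0.28 in APAP vehicle (-0.69 to 0.13, edgeR FDR 0.282) and 0.06 in APAP hAAM livers (-0.37 to 0.48, FDR 0.870), the second turning to -0.11 without APAP hAAM replicate 3.

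H2-Eb1 encodes the beta chain of the second classical molecule, I-E (chr17:34305867-34316674, plus strand). C57BL/6 mice carry a defect in the I-E alpha chain, so this beta chain has no regular partner in them. Its CPM was 10.7, 12 and 8.85 in control, 9.17, 8.43, 10.6, 6.92 and 8.15 in APAP vehicle and 7.68, 8.09, 14.1 and 10.8 in APAP hAAM livers. H2-Eb1 was also highest in APAP hAAM replicate 3 and lowest in APAP vehicle replicate 4, and its groups overlapped. Its log2 fold change was -0.28 in APAP vehicle (-0.71 to 0.14, edgeR FDR 0.298) and -0.05 in APAP hAAM livers (-0.50 to 0.40, FDR 0.883).

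Cd74, which holds new class II pairs until they reach the endosome (chr18:60803848-60812652, plus strand), had the largest mean deficit of the class II set in APAP vehicle livers. It was at 36.9, 38.5 and 30.7 CPM in control, at 26.7, 26.8, 36.4, 24.4 and 26.5 in APAP vehicle and at 28.1, 25.6, 48.0 and 34.9 in APAP hAAM livers. In 4 of 5 APAP vehicle livers it was below every control, and APAP vehicle replicate 3, the near-identical library, was the exception. For Cd74 the log2 fold change was -0.33 (-0.74 to 0.08, edgeR FDR 0.204) in APAP vehicle and -0.05 (-0.48 to 0.38, FDR 0.878) in APAP hAAM livers. Without APAP vehicle replicate 3 it was -0.44 with FDR 0.0835, which also missed the threshold. The direction of all 4 of these genes in APAP vehicle livers turned when counts were scaled by library size alone (0.20 for H2-Aa, 0.06 for H2-Ab1 and H2-Eb1, 0.01 for Cd74), where it moved the median of all genes to 0.36. In APAP hAAM livers that scaling turned H2-Eb1 and Cd74 to 0.22, with the median of all genes at 0.32.

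H2-DMa and H2-DMb1 form the exchange factor that loads peptides. H2-DMa (chr17:34119541-34139101, plus strand) was at 2.76, 3.57 and 3.36 CPM in control, at 3.79, 2.7, 3.68, 3.22 and 3.17 in APAP vehicle and at 3.46, 3.22, 3.39 and 3.08 in APAP hAAM livers. Its log2 fold changes, 0.03 in APAP vehicle (-0.26 to 0.33, edgeR FDR 0.873) and 0.02 in APAP hAAM livers (-0.28 to 0.33, FDR 0.919), had the narrowest intervals of the 10 genes. The exons of H2-DMa share 360 bases with Brd2 on the other strand, and Brd2 fell by 0.30 (FDR 0.0315). If strand was not used in counting, reads in the shared bases may have been counted for either gene or for neither.

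H2-DMb1 (chr17:34153072-34160230, plus strand) was at 1.77, 2.82 and 2.31 CPM in control, at 2.79, 2.84, 2.30, 2.71 and 2.60 in APAP vehicle and at 3.44, 2.22, 3.83 and 2.67 in APAP hAAM livers. Its lowest value was in control replicate 1 and the groups overlapped. H2-DMb1 had a log2 fold change of 0.20 in APAP vehicle (-0.22 to 0.62, edgeR FDR 0.460) and of 0.40 in APAP hAAM livers (-0.04 to 0.84, FDR 0.179), and without control replicate 1 these were 0.05 and 0.25. Its near copy H2-DMb2 lies beside it, so reads that fit both genes are uncertain.

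Ciita (chr16:10480059-10528418, plus strand, 24 merged exons) encodes the transactivator on which the set depends. It was at 3.07, 4.59 and 3.67 CPM in control, at 3.42, 4.02, 4.39, 3.28 and 2.72 in APAP vehicle and at 3.73, 4.06, 6.04 and 4.56 in APAP hAAM livers. All 4 APAP hAAM livers were above the median of the controls and above that of the APAP vehicle livers, but the ranges overlapped. Against control Ciita had a log2 fold change of -0.09 in APAP vehicle (-0.52 to 0.34, edgeR FDR 0.774), which turned to 0.25 with library size alone, and of 0.28 in APAP hAAM livers (-0.17 to 0.73, FDR 0.364). Ciita shares 329 exon bases with Dexi on the other strand, and Dexi fell by 0.77 in APAP vehicle livers (FDR 0.00345), so the same reservation on strand holds.

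**Figure D3:**
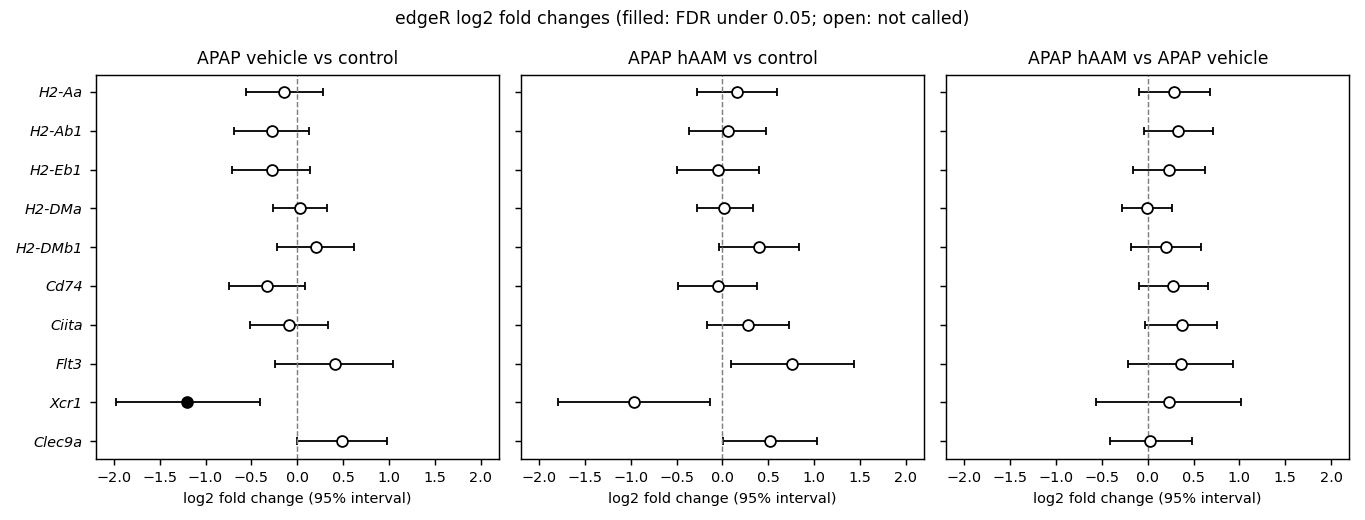
edgeR log2 fold change and 95% interval of each gene in the 3 comparisons, filled where FDR was under 0.05. Xcr1 in APAP vehicle against control (-1.20, interval -1.98 to -0.41) is the only filled point, and the intervals of the classical chains and Cd74 reach from -0.74 to 0.28 there.

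Of the 3 dendritic cell receptors, Xcr1 was lower after APAP, and Clec9a and Flt3 had higher means that were not called. Xcr1, the receptor for the chemokine XCL1 that CD8+ T cells and NK cells release (chr9:123852315-123862029, minus strand), had 25, 33 and 30 counts in the control livers, 17, 13, 19, 13 and 6 in the APAP vehicle livers and 16, 8, 19 and 14 in the APAP hAAM livers. On the CPM scale these were 0.476, 0.519 and 0.593 in control, 0.292, 0.226, 0.368, 0.192 and 0.0888 in APAP vehicle and 0.303, 0.148, 0.368 and 0.261 in APAP hAAM livers. Every APAP liver lay below every control liver.

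The group means of Xcr1 were 0.529 ± 0.0588, 0.234 ± 0.105 and 0.270 ± 0.0923 CPM (SD, n = 3, 5 and 4). Xcr1 fell by 1.20 on the log2 scale in APAP vehicle livers, to 0.436 of the control level (edgeR FDR 0.0263, lower in 5 of 5 livers), and the groups did not overlap, as was so for 34.8% of all genes. In APAP hAAM livers the log2 fold change was -0.97 (-1.79 to -0.14, unadjusted edgeR p 0.0255, FDR 0.0911), so the call was not made although these groups did not overlap either (28.5% of all genes). The call in APAP vehicle livers rests on few reads: it held in 8 of 12 fits that left out 1 liver and was lost without control replicate 1 (FDR 0.0503), control replicate 2 (0.0614), control replicate 3 (0.0859) or APAP vehicle replicate 4 (0.0583). It was also lost with library size alone (-0.86, FDR 0.0582), and it held without both near-identical libraries (-1.40, FDR 0.0192).

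Clec9a encodes the receptor by which type 1 dendritic cells sense actin filaments exposed on dead cells (chr6:129408862-129424763, plus strand). It was at 2.55, 5.47 and 4.37 CPM in control, at 5.80, 5.59, 7.26, 5.19 and 5.22 in APAP vehicle and at 4.82, 4.96, 7.22 and 6.74 in APAP hAAM livers. All 9 APAP livers were above the control median, and control replicate 2 lay among them. The log2 fold change was 0.49 in APAP vehicle (edgeR FDR 0.123) and 0.52 in APAP hAAM livers (0.01 to 1.03, FDR 0.137). Without control replicate 1 these were 0.24 and 0.27, and without control replicate 2 the first was 0.75 and was called (FDR 0.0451). Clec9a shares 184 exon bases with Clec1b on the same strand, and Clec1b rose by 0.59 (FDR 0.0371) and 0.62 (FDR 0.0472). Reads in the shared bases may have been counted for either gene or for neither.

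Flt3 encodes the growth factor receptor that dendritic cells and their precursors need (chr5:147330741-147400489, minus strand, 25 merged exons). It was at 0.476, 0.944 and 0.474 CPM in control, at 0.860, 0.888, 0.852, 0.621 and 1.01 in APAP vehicle and at 0.719, 0.944, 1.55 and 1.12 in APAP hAAM livers, from 24 to 80 counts per liver. The APAP livers were above 2 of the 3 controls, and control replicate 2 overlapped both APAP groups. The log2 fold change was 0.41 in APAP vehicle (-0.24 to 1.05, edgeR FDR 0.326) and 0.76 in APAP hAAM livers (0.09 to 1.44, unadjusted p 0.0296, FDR 0.10). Without control replicate 2 the second was 1.18 and was called (FDR 0.0312).

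Between the treated groups, APAP hAAM against APAP vehicle, no gene of the 10 passed FDR 0.05 by edgeR and none had an unadjusted p under 0.05, which 5.02% of all genes had. No pair of ranges was separate (1.40% of all genes). The log2 fold change was above 0 in 9 of 10 genes, with a median of 0.26, and values lay between -0.01 for H2-DMa and 0.37 for Ciita (-0.03 to 0.76, FDR 0.966). H2-Ab1 stood at 0.33 (-0.04 to 0.71), H2-Aa at 0.29 (-0.09 to 0.68), Cd74 at 0.28 (-0.10 to 0.66) and H2-Eb1 at 0.23 (-0.16 to 0.62). Of the receptors, Flt3 stood at 0.36 (-0.21 to 0.93), Xcr1 at 0.23 (-0.56 to 1.02) and Clec9a at 0.03 (-0.41 to 0.48), which turned to -0.02 with library size alone. Without APAP hAAM replicate 3, Cd74 stood at 0.07, H2-Aa at 0.11, H2-Eb1 at 0.03, H2-Ab1 at 0.17 and Ciita at 0.21, and Clec9a turned to -0.08. Leaving out some of the other livers, but not each of them, raised the differences. The highest values with 1 liver left out were 0.40 for Cd74, 0.41 for H2-Aa, 0.34 for H2-Eb1, 0.45 for H2-Ab1 and 0.46 for Ciita. None of the 10 genes was called in any of these 12 fits.

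The class II genes varied widely between livers of the same group. Summed over H2-Aa, H2-Ab1, H2-Eb1 and Cd74, the level was 73.7, 77.7 and 59.8 CPM in control, 57.3, 55.9, 73.2, 47.8 and 56.6 in APAP vehicle and 57.2, 55.1, 97.7 and 73.2 in APAP hAAM livers. APAP hAAM replicate 3 was the highest of all 12 livers in each of these 4 genes, and in 6 of 7 when Ciita and the H2-DM chains were counted. APAP vehicle replicate 4 was the lowest of the 9 APAP livers in each of the 4. The 2 near-identical libraries, which carry different labels, both stood at 73.2 CPM.

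**Figure D4:**
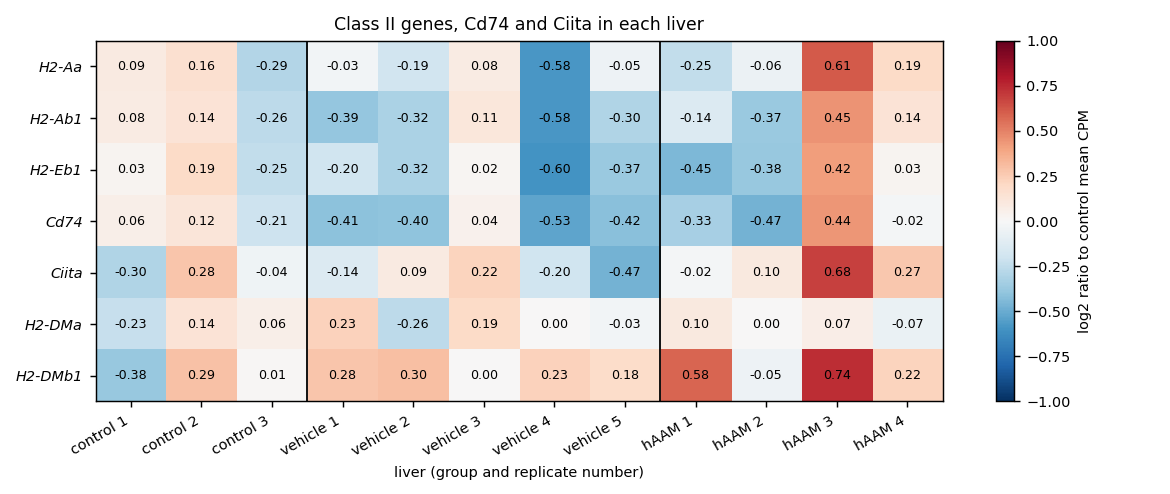
log2 ratio of each liver's CPM to the control mean for 7 class II genes (rows) in the 12 livers (columns; hAAM and vehicle stand for the APAP groups). The column of APAP hAAM replicate 3 holds the highest value in 6 of 7 rows, H2-DMa being the exception, and that of APAP vehicle replicate 4 is low in the rows of the classical chains and Cd74.

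Markers of B cells, which also carry class II, were set beside this order of livers. The 10 B cell markers summed to 7.01 to 9.31 CPM in control, 6.64 to 13.9 in APAP vehicle and 7.87 to 12.6 in APAP hAAM livers. The highest sum, 13.9 CPM, was in APAP vehicle replicate 5, where the sum of the 4 class II genes was 56.6 CPM, while the sum in APAP hAAM replicate 3 was 12.6. None of the 10 B cell markers was at 0 in any liver. None was called against control in APAP vehicle (29.8% of all genes) or APAP hAAM livers (20.7%), or between the APAP groups (0%). The part of B cells in the class II level was not tested.

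Across the 12 livers, the genes whose deviations from their group means most resembled the mean deviation of the 5 class II chains and Cd74 included Tmem30a (Pearson r 0.988, Spearman rho 1.0) and Gm30784 (0.951 and 0.881), followed by Sgpp1 (0.949) and Crip2 (0.948). Without the 2 livers farthest out, APAP hAAM replicate 3 and APAP vehicle replicate 3, r was 0.975 for Tmem30a. For the mean deviation of Flt3, Xcr1 and Clec9a they were Enpp1 (r 0.960, rho 0.937), Fahd1 (0.942), Sigirr (0.936), Men1 (0.932) and Kyat1 (0.926). These stand at the top end of 13181 ranked genes, of which 5% had r above 0.725 and 0.715 respectively. The values share libraries and include the near-identical pair, so they are a description with no test.

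Other genes of the pathway were counted on lists chosen with earlier results known. The counts are to be read against all genes tested, of which 15.0% rose and 14.8% fell in APAP vehicle livers and 10.7% rose and 9.96% fell in APAP hAAM livers. Of 10 genes of class II processing and turnover, 4 rose and 1 fell in APAP vehicle livers (5 of 10 called, against 29.8% of all genes), and 5 rose and 1 fell in APAP hAAM livers (6 of 10, against 20.7%). Cd63, a tetraspanin of the class II loading compartment, rose by 2.97 (edgeR FDR 0.00123), from 2.39 to 4.50 CPM in control to 14.4 to 38.9 CPM in APAP vehicle livers. Lgmn, a lysosomal protease, rose by 1.19 (FDR 0.00149) and Ifi30, which reduces disulfides of antigens, by 0.82 (FDR 0.00147). Ctss, the protease that trims the invariant chain in dendritic cells, rose by 0.73 (FDR 0.0269), but without control replicate 1 it was at 0.66 with FDR 0.0925. Sppl2a, which cleaves the last stub of the invariant chain, fell by 0.41 (FDR 0.00247), but with library size alone it was at -0.07 (FDR 0.553), and at -0.10 (FDR 0.427) in APAP hAAM livers, where it was also called. In APAP hAAM livers Cd63 rose by 2.79, Lgmn by 1.01, Ctss by 0.90 (FDR 0.0180, and 0.0633 without control replicate 1) and Ifi30 by 0.86, with Ctsd as the fifth (0.43, FDR 0.0309). The call of Ctsd ended without control replicate 1 (FDR 0.0583) or APAP hAAM replicate 3 (FDR 0.0542), and it held in 6 of 12 fits that left out 1 liver. The medians of the list were 0.43 and 0.45, against 0.01 and 0.02 over all genes. Many of these genes are also made by macrophages.

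Of 7 genes for the factors that bind the X and Y boxes and the neighbouring site, 3 fell and none rose in APAP vehicle livers (42.9% called, against 29.8% of all genes). Rfxank fell by 0.75 (edgeR FDR 0.00135), Nfyb by 0.63 (FDR 0.000853) and Rfx5 by 0.56 (FDR 0.000981). Rfxank stood at 15.6, 14.8 and 16.7 CPM in control and at 8.72, 10.1, 11.2, 8.87 and 7.83 in APAP vehicle livers, with no overlap. In APAP hAAM livers Nfyb (-0.61, FDR 0.00243) and Rfx5 (-0.46, FDR 0.00563) fell (28.6% called, against 20.7%), and Rfx5 was not called in either comparison with library size alone (FDR 0.111 and 0.271). These factors act in most cell types and on many other genes, and their decrease was measured in whole liver.

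Of the other class II genes, H2-DMb2 and H2-Ob were tested and neither was called, while H2-Oa and H2-Eb2 had too few counts. Of 7 genes of interferon gamma signalling, the main inducer of Ciita outside professional presenting cells, Ifngr1 rose by 0.91 in both APAP groups (edgeR FDR 0.000696 and 0.00150). Irf1, a factor induced by that pathway, fell by 2.02 (FDR 0.00706) and 2.36 (FDR 0.00801). These sizes rested on control replicate 1, and without it Irf1 fell by 0.62 (FDR 0.00863) and 0.96 (FDR 0.00216). Socs1 fell by 1.43 in APAP hAAM livers (FDR 0.0466), a call lost without control replicate 1 (-0.44, FDR 0.365), without APAP vehicle replicate 3 (FDR 0.0565) or APAP hAAM replicate 4 (FDR 0.092), and with library size alone (FDR 0.0702). The called share of the list was 28.6% in APAP vehicle livers (29.8% of all genes) and 42.9% in APAP hAAM livers (20.7%). Ifng itself was not in the table.

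Of the genes of class I presentation, the counterpart that loads peptides of the cell's own proteins, 5 of 12 fell and none rose in APAP vehicle livers (41.7% called, against 29.8% of all genes), and 4 fell in APAP hAAM livers (33.3% against 20.7%). H2-K1 fell by 0.97 (edgeR FDR 0.000919), from 704 to 941 CPM in control to 349 to 461 CPM in APAP vehicle livers. B2m, the light chain of class I, fell by 0.76 (FDR 0.00253), H2-D1 by 0.69 (FDR 0.000937), the loading factor Tapbp by 0.53 (FDR 0.00115) and the peptide trimmer Erap1 by 0.45 (FDR 0.00695). In APAP hAAM livers H2-K1 fell by 0.79 (FDR 0.00568), H2-D1 by 0.55, B2m by 0.49 and Tapbp by 0.37. With library size alone H2-D1, B2m and Tapbp were not called in APAP hAAM livers (FDR 0.0673, 0.240 and 0.608), nor were Tapbp (-0.19, FDR 0.0994) and Erap1 (-0.11, FDR 0.324) in APAP vehicle livers. B2m in APAP hAAM livers was also lost without control replicate 1 (FDR 0.131) or APAP hAAM replicate 4 (FDR 0.079).

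Among 10 further genes of type 1 dendritic cells, 4 rose and 2 fell in APAP vehicle livers (60.0% called, against 29.8% of all genes), and 3 rose and 1 fell in APAP hAAM livers (40.0% against 20.7%). Wdfy4, needed for cross-presentation, rose by 1.00 (edgeR FDR 0.00412) and 1.03 (FDR 0.00711), and Cadm1, an adhesion molecule, by 0.64 (FDR 0.000930) and 0.55 (FDR 0.00437). Irf8 rose by 0.43 in APAP vehicle livers (FDR 0.0404) and Naaa by 0.41 (FDR 0.0345) and 0.55 (FDR 0.0173). Both calls of Naaa ended without control replicate 1 (FDR 0.102 and 0.0561), and that of Irf8 held in 7 of 12 fits that left out 1 liver. Gcsam fell by 1.27 in APAP vehicle livers (FDR 0.0151), at low levels of 0.0774 to 0.139 CPM against 0.133 to 0.33 CPM in control. That call held in 10 of 12 fits that left out 1 liver, and Gcsam was at -0.29 (FDR 0.579) in APAP hAAM livers. Id2 fell by 0.78 (FDR 0.0107) and 0.92 (FDR 0.00971), the first call being lost with library size alone (-0.43, FDR 0.0768). Wdfy4, Cadm1, Irf8 and Id2 are also made by other cells. Irf8 and Naaa, like Sppl2a, Ctsd and Erap1, were named after their values were seen, as were the other named genes that the rule in the methods does not cover.

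Of 8 genes of type 2 dendritic cells, 3 rose and none fell in each APAP group (37.5% called, against 29.8% and 20.7% of all genes). In APAP vehicle livers Klf4 rose by 1.12 (edgeR FDR 0.00523), Irf4 by 1.08 (FDR 0.00908) and Sirpa, which macrophages also carry, by 1.01 (FDR 0.0106). The other 5 were not called there. Of these, Mgl2 (-1.06) and Cd209a (-0.39) lay below 0, and Clec4a4 (1.65), Clec10a (0.57) and Notch2 (0.04) above 0. In APAP hAAM livers Clec4a4 rose by 2.32 (FDR 0.0336, and 0.0838 without control replicate 1, where it was at 0), Sirpa by 1.13 and Klf4 by 0.90. Of 8 pan-dendritic and growth factor genes, Itgax, the CD11c integrin, rose by 1.71 (FDR 0.00234) and 1.93 (FDR 0.00275), Csf2ra by 1.40 (FDR 0.00203) and 1.25 (FDR 0.00666), and Dpp4 fell by 0.55 in APAP vehicle livers (FDR 0.0199). The call of Dpp4 ended without control replicate 1 (-0.45, FDR 0.0895) and with library size alone (-0.21, FDR 0.174). In this list 3 and 2 of 8 genes were called, against 29.8% and 20.7% of all genes. Zbtb46 (-0.17 and -0.13) lay below 0 in both groups and was not called. Flt3l (0.09 and 0.19), Csf2rb (0.21 and 0.06), Cd24a (1.28 and 1.1) and Kit (0.11 and -0.04) were not called either.

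Of 9 genes of plasmacytoid dendritic cells, 3 rose in each APAP group (33.3% called, near the 29.8% of all genes in APAP vehicle livers, and against 20.7% in APAP hAAM livers). Ly6d rose by 5.22 (edgeR FDR 0.000530) and 4.71 (FDR 0.00172), Runx2 by 1.02 (FDR 0.00691) and 1.01 (FDR 0.0130) and Tcf4 by 0.34 (FDR 0.0291) and 0.35 (FDR 0.0426). Both calls of Tcf4 ended without control replicate 1 (0.28, FDR 0.112, and 0.29, FDR 0.138). Ly6d was at 2.54 CPM in APAP hAAM replicate 3 and at 12.4 to 32.7 CPM in the other APAP livers. The other 6 plasmacytoid genes were not called in either group. In APAP vehicle livers Ccr9 (-0.40), Siglech (-0.35) and Spib (-0.24) lay below 0, and Bcl11a (0.19), Pacsin1 (0.17) and Irf7 (0.08) above 0. In APAP hAAM livers only Ccr9 (-0.38) of the 6 lay below 0. Of 11 tested genes of mature dendritic cells and costimulation, Cacnb3 rose by 1.35 (FDR 0.0195) and 1.44 (FDR 0.0241) and Socs2 fell by 1.76 (FDR 0.00560) and 1.60 (FDR 0.0178), 18.2% of the list in each group, below the share of all genes. Socs2 was at 44.4 CPM in control replicate 1, against 15.1 and 18.5 CPM in the other controls, so the sizes of both falls rested partly on that liver. The second fall of Socs2 was lost without control replicate 1 (FDR 0.0967).

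**Figure D5:**
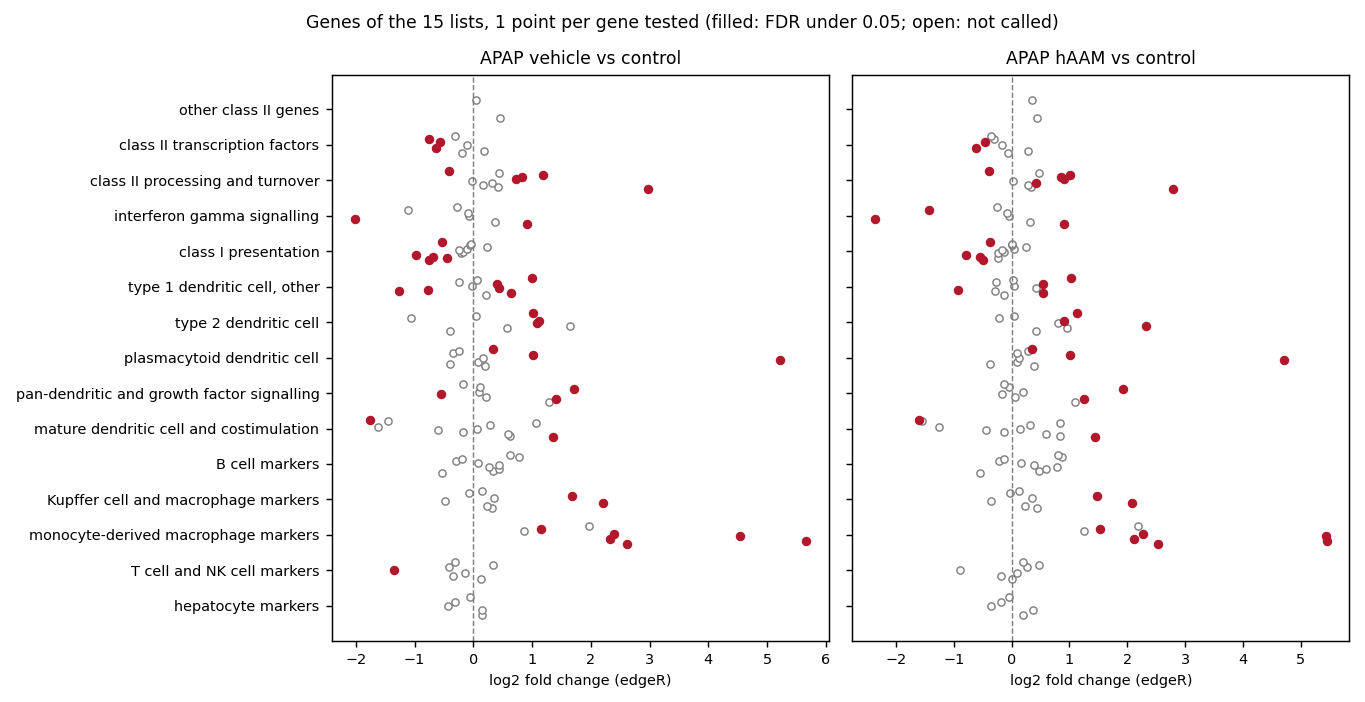
edgeR log2 fold changes of the 122 tested genes of 15 lists against control, 1 point per gene, filled where FDR was under 0.05. Class I genes and class II transcription factors have filled points only below 0, and monocyte-derived macrophage markers only above 0 (1.15 to 5.67 in APAP vehicle livers).

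Markers of other cells were counted beside the 10 genes. Of 8 markers of monocyte-derived macrophages, 6 rose and none fell in both APAP groups (75.0% called, against 29.8% and 20.7% of all genes), Chil3 by 5.67 (edgeR FDR 9.84e-05) and 5.45, Gpnmb by 4.54 and 5.43, Ccr2 by 2.62 and 2.53 and Itgam by 2.40 and 2.27. Both calls of Itgam ended without control replicate 1 (FDR 0.0714 and 0.111). Their sum went from 70.4 to 88.0 CPM in control to 157 to 509 CPM in APAP vehicle and 154 to 514 CPM in APAP hAAM livers. Of 8 Kupffer cell and macrophage markers, Marco (1.68 and 1.48) and Cd68 (2.21 and 2.09) rose. That is 2 of 8 in each group, against 29.8% and 20.7% of all genes. The other 6 were not called in either group. Of these, Clec4f (-0.48 and -0.36) and Timd4 (-0.07 and -0.03) lay below 0. Vsig4 (0.14 and 0.13), Cd5l (0.23 and 0.24), Adgre1 (0.32 and 0.44) and Csf1r (0.35 and 0.36) lay above 0. Of 7 T cell and NK cell markers, Cd4 fell by 1.35 in APAP vehicle livers (FDR 0.00985, 14.3% of the list), and none was called in APAP hAAM livers. No hepatocyte marker of 5 was called. The part of these cells in the level of the 10 genes was not tested. No gene of the 15 lists was called between APAP hAAM and APAP vehicle livers by edgeR (0% of all genes).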

How the data were processed

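Per the study's methods and the labels, total RNA was taken from frozen liver, depleted of ribosomal RNA and made into directional libraries. The authors trimmed reads with cutadapt 4.6, aligned them to GRCm38 with STAR 2.7.1a and counted them per gene with summarizeOverlaps, and the strand setting is not given in the sources used here. What the authors deposited are unnormalized counts per Ensembl gene in 12 livers; the protocol speaks of 14 libraries, and 12 were analysed here. Reads of the injected human cells were not assessed.

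Analyses used R 4.3.3 with edgeR 4.0.16 and DESeq2 1.42.0. Low counts were filtered with filterByExpr by group, libraries were scaled with TMM, and all 12 livers entered 1 quasi-likelihood fit, not robust (biological coefficient of variation 0.214), with two-sided p-values and Benjamini-Hochberg FDR over 22581 genes. 95% intervals use the standard error and degrees of freedom of that model. CPM and exon lengths (GENCODE M21) describe levels. Nothing in the labels says more than that each replicate is a separate sample, so p-values measure the spread between these samples. The fit was tested on simulated counts.

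The 10 genes and the 15 lists (132 genes, 126 in the table, 122 tested) were chosen with earlier results of these data known. From each list the text names up to 4 called genes with the largest change in each comparison, and the 5 genes most correlated with each set. Alternatives were DESeq2, RLE factors, library size alone, no filter, at least 10 counts in every liver, only the 2 groups compared, a replicate block, each liver left out, and both near-identical libraries left out. No protein sequence was given and none is shown. Promoter windows are from RefSeq. A gene that the likeness ranking also named is not reported here.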

Additional observations from a re-analysis of the deposited data

Results flagged for a closer look

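One value stood apart from its group by Dixon's test on log2 CPM, which was run on 20 groups of 4 or 5 livers and flags about 1 in 20 by chance. Cd74 was at 36.4 CPM in APAP vehicle replicate 3, while the other 4 APAP vehicle livers lay between 24.4 and 26.8 CPM, so the gap took 0.769 of the range. That library is the one near-identical to APAP hAAM replicate 4, where Cd74 was at 34.9 CPM.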

How the results depend on the processing

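Calls of the 10 genes in APAP vehicle against control, 1 as reported, came to 3 with library size alone, 0 with at least 10 counts in every liver (Xcr1 was then not tested, and 9 genes were), 0 with the replicate block and 0 to 1 when each liver was left out. Without control replicate 2 the 1 called gene was Clec9a. In APAP hAAM against control they were 0 as reported, 4 with library size alone and 0 to 1 with a liver left out, the gene being Flt3 without control replicate 2 and Xcr1 without APAP vehicle replicate 5 (FDR 0.0475). Over all genes, 6719 calls in APAP vehicle against control became 4253 with the block and 4633 to 7197 with a liver left out. In APAP hAAM against control 4666 became 7340 with library size alone, 2729 with only the 2 groups, 2959 with the block and 2419 (without control replicate 3) to 5456 (without APAP hAAM replicate 3) with a liver left out. It was 3027 without control replicate 1, 2799 without APAP hAAM replicate 1 and 2942 without APAP hAAM replicate 2. Between the APAP groups 0 became 1 with DESeq2, 0 to 1 with a liver left out (1 without APAP vehicle replicate 3), and 88 with DESeq2 without both near-identical libraries, an alternative chosen after seeing the data; none of the 88 was among the 10 genes.

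Directions turned for 8 values with library size alone: in APAP vehicle H2-Aa 0.20, H2-Ab1 0.06, H2-Eb1 0.06, Cd74 0.01 and Ciita 0.25, in APAP hAAM against control H2-Eb1 0.22 and Cd74 0.22, and between the APAP groups Clec9a -0.02. With the replicate block Ciita turned to 0.03 in APAP vehicle and Clec9a to -0.02 between the APAP groups. H2-DMa between the APAP groups turned to 0.06 without both near-identical libraries, with edgeR and with DESeq2, and in APAP vehicle to -0.01 with the latter. With a liver left out, log2 fold changes ranged in APAP vehicle from -0.07 to 0.11 for H2-DMa and -0.21 to 0.08 for Ciita. In APAP hAAM against control they ranged from -0.07 to 0.10 for H2-DMa, -0.25 to 0.06 for H2-Eb1, -0.26 to 0.07 for Cd74, -0.11 to 0.18 for H2-Ab1 and -0.03 to 0.28 for H2-Aa. Between the APAP groups the ranges were -0.07 to 0.04 for H2-DMa and -0.08 to 0.12 for Clec9a. For these the cause was not tested, except that fewer livers or genes entered some fits.

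The labels do not say that replicate numbers pair the samples. Of 10 same-number pairs across groups 3 correlated above 0.1 (-0.458 to 0.385), as did 7 of 37 pairs with different numbers. So few pairs cannot settle whether numbers share a batch. The block took Xcr1 in APAP vehicle to -0.94 with FDR 0.0577. Of 41 called list genes in APAP vehicle against control, 36 kept the call without control replicate 1, 35 with library size alone and 40 with DESeq2, which gave 1 no adjusted p. Of 37 in APAP hAAM against control these were 28, 31 and 36, again with 1 not given. In every one of the 12 fits that left out 1 liver, 30 of the 41 and 24 of the 37 were called; the least often called were Socs1 (3 fits), B2m (4), Tcf4 (5) and Itgam (5), all in APAP hAAM livers. Xcr1 and Flt3 rest on 6 to 80 counts per liver, so small differences in them were not detectable at this depth.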
